A study of Mus musculus with 14 samples.

Results

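Semaphorins, plexins, neuropilins, ephrins, Eph receptors, netrins, Slits and their receptors were followed through the differentiation of mouse oligodendrocyte precursor cells (OPCs) and through KD of Sbp2l or Pdgfra. The genes were chosen by symbol: the semaphorins of classes 3 to 7, all plexins, Nrp1 and Nrp2, the A and B ephrins and Eph receptors, the netrins with Dcc and Unc5, and Slit with Robo. Of 23427 genes in the deposited table, 69 had such a symbol, and 51 of these reached 1 FPKM (fragments per unit of exon length and of library depth) in at least 2 of the 14 libraries. These 51 genes, called members here, are 5 secreted and 12 membrane semaphorins, 11 plexins and neuropilins, 6 ephrins, 8 Eph receptors, 6 genes of the netrin, Dcc and Unc5 group, and 3 of Slit and Robo. The 18 genes below that level were Sema3f, Sema3g, Sema4f, Efna3, Efna5, Epha1, Epha2, Epha6, Epha8, Epha10, Ephb4, Ntn3, Ntn5, Unc5d, Slit1, Slit3, Robo3 and Robo4. Ephb6 and Unc5a became members through siSbp2l alone, Nrp2 through siPdgfra alone and Epha3 through the siSbp2l and siPdgfra libraries, so each of these had to be high there.

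All libraries came from OPCs of wild-type C57BL/6J mice. Cells were purified by immunopanning from the cortices of 3 pups at postnatal day 7. In immunopanning, dishes coated with an antibody against PDGFRα retain the cells. Day0 libraries were taken before differentiation, which was induced by growth factor withdrawal and T3, the active thyroid hormone. Day3 libraries formed the other 6 groups. Of these, 4 are controls, namely non-treated, mock, NC siRNA #1 and NC siRNA #2 (both non-targeting), and 2 are KDs, with siRNA against Sbp2l (siSbp2l, gene Secisbp2l) or Pdgfra (siPdgfra). Each group had 2 libraries from independent replicates of cultured OPCs. The antibody used for purification recognizes the product of a gene that was itself knocked down later.

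Axon guidance proteins are secreted or membrane-bound cues and the receptors that read them. Semaphorins act mainly through plexins, with neuropilins as partners for the secreted class; ephrins and Eph receptors signal where cells touch; netrins act through Dcc and Unc5 receptors, and Slits through Robo receptors. These receptors steer the cytoskeleton through small GTPases, and in the oligodendrocyte (OL) lineage the same families are known for directing OPC migration and process outgrowth and for the inhibition of axon growth by myelinating cells.

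The targeted genes were lowered in the libraries labelled for them. Secisbp2l was at 3.82 and 3.91 FPKM in siSbp2l against 135 to 255 in the 8 control libraries of Day3, and Pdgfra was at 2.69 and 3.30 FPKM in siPdgfra against 32.4 to 72.1. Pdgfra was also at 144 and 149.9 FPKM in siSbp2l. The estimated depth ranged from 6560825 fragments, in NC siRNA #2 replicate 2, up to 31621282 in Day0 replicate 1. Replicates of the members differed with an SD of 0.10 to 0.154 on the log2 scale in 6 groups and of 0.406 in non-treated, where the largest gap was 0.90 for Sema3d. OPC markers (7 of 7) were above 0.1 FPKM in every group, though Cspg4 was at only 0.540 and 0.448 FPKM in siPdgfra, against 25.6 and 21.8 in Day0. The defining markers of endothelial cells (Cdh5, Cldn5) and 7 of 8 microglial markers were under 0.1 FPKM in all groups. The endothelial marker Vwf, though, was at 0.931 to 4.17 FPKM over the 14 libraries, and the eighth microglial marker, P2ry12, at 0.513 to 9.46, with 9.46 and 8.78 in NC siRNA #1. In all groups the mural and fibroblast markers summed to at most 0.368 FPKM. Of the astrocyte markers, Gja1 was at or near 0, while Gfap was at 0.677 and 0.755 FPKM in Day0 and 36.8 to 79.2 in the control libraries, and S100b at 17.5 and 14.8 and 116 to 205. Neuron markers, carried by Tubb3 and Elavl3, summed to 61.3 to 65 FPKM in Day0, 147 to 357 in the control libraries, 248 to 249 in siSbp2l and 381 to 383 in siPdgfra. The summed level of the OL markers, of which 8 of 9 were in the table, was 787 to 867 FPKM in Day0, 7036 to 10309 in the 8 control libraries, 2822 to 3021 in siSbp2l and 5271 to 6054 in siPdgfra. In bulk libraries, fewer cells of a type and less RNA per cell cannot be told apart.

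**Figure D1:**
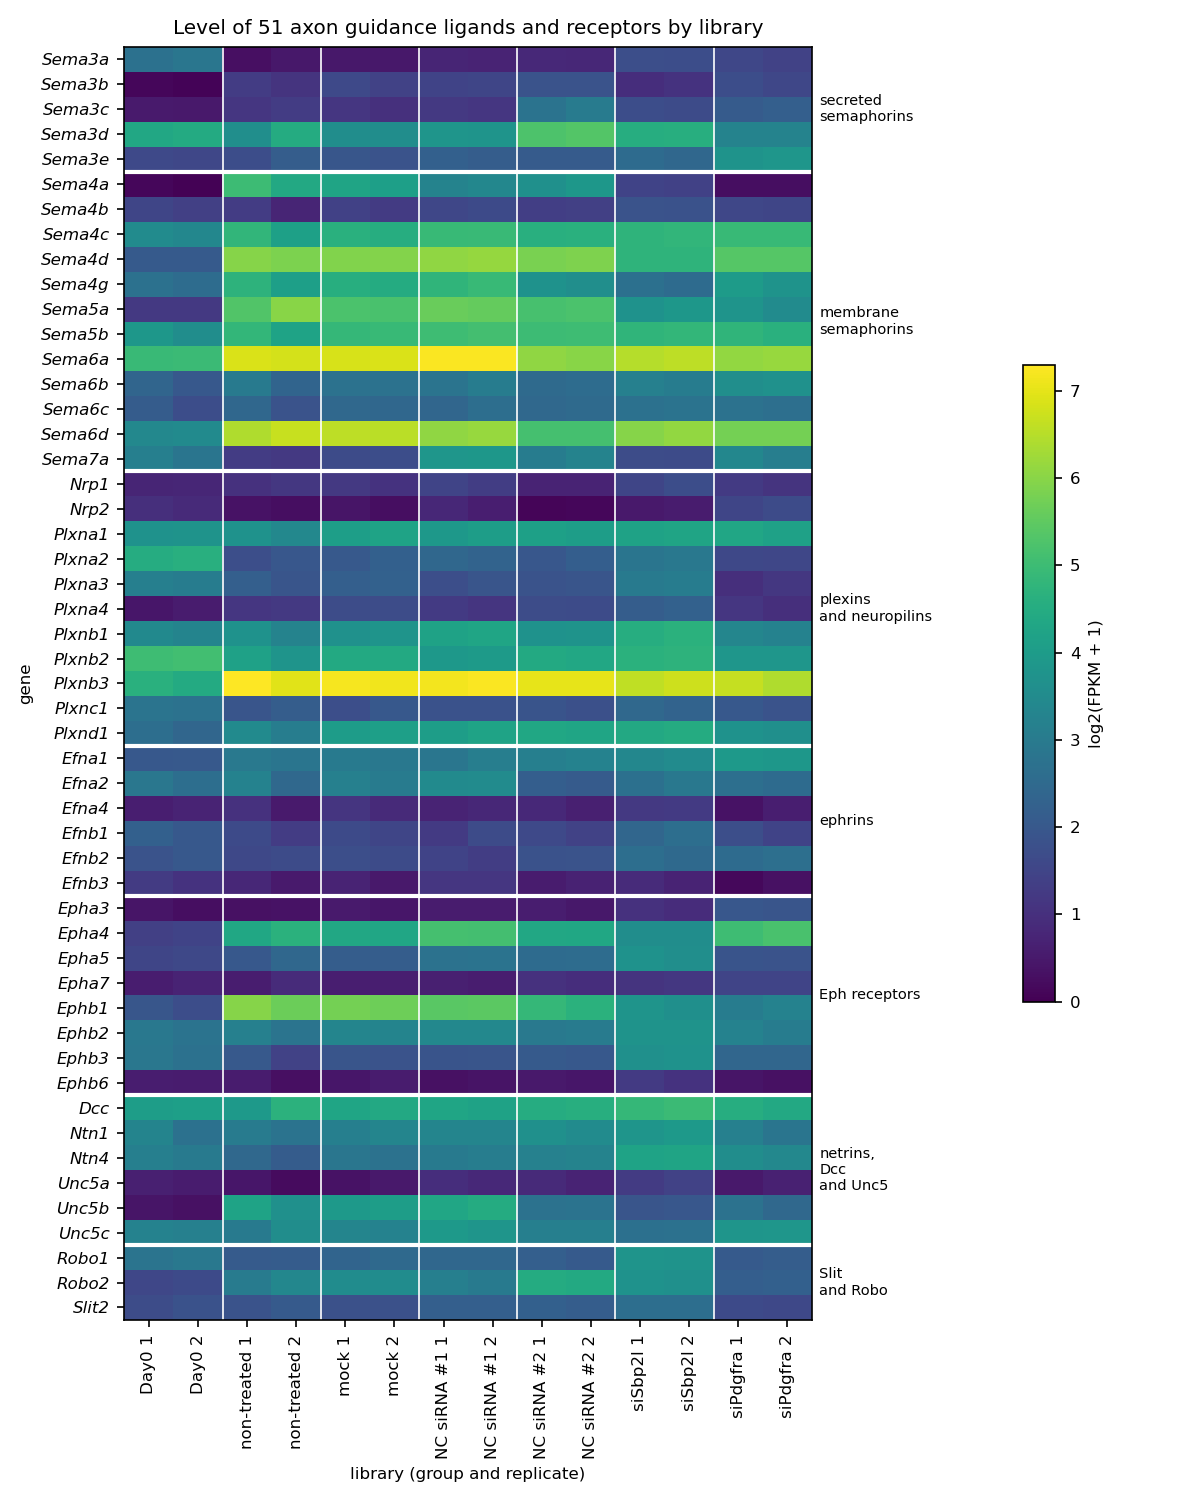
Level of the 51 members, as log2(FPKM + 1) in colour, in each of the 14 libraries, with the genes in rows grouped by family and the libraries in columns grouped by condition. Sema6a and Plxnb3 are the brightest rows at Day3, and Sema4a, Sema4d, Sema5a and Ephb1 are dark in Day0 and bright in the Day3 controls.

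Levels differed widely among the members. The median of their mean FPKM over 14 libraries was 6.43, with 7 members under 1 FPKM and 11 over 20. Plxnb3, a receptor for Sema5a, had the highest mean in the receptor families, with 23.8 and 21 FPKM in Day0, 156 and 123 in non-treated, 147 and 141 in mock, 142 and 151 in NC siRNA #1, 129 and 129 in NC siRNA #2, 96.2 and 106 in siSbp2l and 99.2 and 85.1 in siPdgfra. Every Day3 library was above both Day0 libraries, and both KD groups lay below the controls. Sema6a, a membrane semaphorin that binds A-type plexins, led the semaphorins with 29.7 and 30.2 FPKM in Day0, 117 and 113 in non-treated, 115 and 116 in mock, 152 and 152 in NC siRNA #1, 67.1 and 63.4 in NC siRNA #2, 88.7 and 93.6 in siSbp2l and 68.4 and 70.9 in siPdgfra. The NC siRNA #2 libraries were the lowest at Day3 and those of NC siRNA #1 the highest.

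The netrin receptor Dcc, which mediates attraction to netrin, led its group with 15.7 and 16.4 FPKM in Day0, 14 and 24.6 in non-treated, 18.7 and 19.9 in mock, 18.5 and 17.4 in NC siRNA #1, 21.8 and 22.7 in NC siRNA #2, 28.1 and 30.6 in siSbp2l and 22.2 and 20.2 in siPdgfra. The siSbp2l libraries were the highest, and the non-treated pair spanned a range that covered the other controls. Among the ephrins, the GPI-anchored Efna1 was at 2.99 and 3.07 FPKM in Day0, 6.79 and 6.19 in non-treated, 6.81 and 6.55 in mock, 6.26 and 7.64 in NC siRNA #1, 7.95 and 8.43 in NC siRNA #2, 9.48 and 10.5 in siSbp2l and 14.5 and 13.4 in siPdgfra. It was lowest in Day0 and highest in siPdgfra. In the Slit and Robo group the receptor Robo2 led, and its values are given with the control siRNAs.

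Differentiation was examined first, by comparing Day3 with Day0. A gene was called when its adjusted p was under 0.05 in limma and its fold change at least 2, on the log2(FPKM + 1) scale, which understates changes of low genes. The spread of a gene was estimated from all libraries fitted together. Each SE and adjusted p thus does not rest on the compared groups alone, and non-treated varied most (SD 0.406 over the members). In Day3 non-treated against Day0, 19 of 51 members were called, while 26.6% of all 11874 genes tested were. Of these, 13 were higher (background 11.4%) and 6 lower (15.2%), and the median log2 fold change was 0.16 over the members and -0.12 over all genes. Mock libraries gave 19 called members (26.2% of all genes), 16 higher (12.2%) and 3 lower (14%). With median-ratio scaling, which moves the median of all genes to -0.01, Ephb3, Plxna3 and Plxnb2 dropped below the fold threshold in the non-treated comparison. This left 13 members higher and 3 lower, with 25.9% of all genes called. All 8 OL markers tested were called higher in both comparisons, as were 3 of 6 astrocyte markers: Gfap (4.76 in non-treated), S100b (3.42) and Aldh1l1 (2.44). Of 7 neuron markers 2 were higher, Elavl3 (3.04) and Tubb3 (1.38), and 3 lower, and of 7 OPC markers 1 was higher and 5 lower. The part of these markers in the results on the members was not tested.

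Among the ligands, 7 of 12 membrane semaphorins were called higher and 1 lower in non-treated cells. Sema4a, a class 4 membrane semaphorin, was at 0.0934 and 0.0292 FPKM in Day0, which rests on about 10.2 and 2.30 fragments, and at 30.8 and 20.2 in non-treated and 18.3 and 16.3 in mock cells (log2 fold change 4.61 ± 0.16 SE for non-treated, n = 2 libraries a group, limma adjusted p = 1.08e-09, and 4.11 for mock). Sema5a, whose thrombospondin repeats set class 5 apart, was at 1.30 and 1.31 FPKM in Day0, 38.8 and 63.3 in non-treated and 36.6 and 35.9 in mock (4.45 ± 0.18, adjusted p = 2.5e-09, and 4.01). Sema4d, a Plxnb1 ligand made by OLs, was at 3.20 and 3.17 FPKM in Day0 and 62 and 56.4 in non-treated cells, with log2 fold changes of 3.85 and 3.86. For all these ligands the Day0 and Day3 libraries did not overlap. The fitted change of Sema4a depends on the pseudocount of 1, because its Day0 level rests on so few fragments.

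The other membrane semaphorins called higher in both comparisons were Sema6d (3.10 for non-treated and 3.09 for mock), Sema6a (1.91 and 1.92), Sema4g (1.77 and 1.89) and Sema4c (1.03 and 1.14). Sema5b was called in mock alone, at 1.17 against 0.82 in non-treated. The Sema4c value in non-treated fell to 0.71 without non-treated replicate 1 and to 0.96 without Day0 replicate 2, below the fold threshold. Sema7a, the GPI-anchored semaphorin, went down from 7.84 and 6.20 FPKM in Day0 to 1.46 and 1.32 in non-treated and 2.17 and 2.32 in mock (-1.74 ± 0.13, adjusted p = 3.14e-07, and -1.30).

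The secreted semaphorins split. Sema3a, a repellent that signals through Nrp1, fell from 5.56 and 6.29 FPKM in Day0 to 0.227 and 0.394 in non-treated and 0.379 and 0.389 in mock (-2.40 ± 0.10, adjusted p = 1.94e-09, and -2.32), whereas Sema3b rose by 1.11 and 1.43. Sema3c, Sema3d and Sema3e were not called. Sema3a, Sema3c, Sema3d and Sema3e lie together on mouse chromosome 5, Sema3d at chr5:12383166-12588943, Sema3a at chr5:13396784-13603485, Sema3e at chr5:14025276-14256689 and Sema3c at chr5:17574816-17730267, all on the plus strand of mm10, and the group with the highest level was Day0 for Sema3a, NC siRNA #2 for Sema3c and Sema3d, and siPdgfra for Sema3e.

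Among the receptors, Plxnb3 rose by 2.58 in non-treated and 2.63 in mock. Plxna2, a receptor for Sema6a, fell from 21.9 and 23.1 FPKM in Day0 to 2.37 and 2.92 in non-treated and 3.09 and 3.74 in mock (-2.69 ± 0.12, adjusted p = 3.77e-09, and -2.42). In non-treated cells alone, Plxnb2 (-1.10), Plxna3 (-1.04) and the ephrin-B receptor Ephb3 (-1.07) were also called lower. Without non-treated replicate 2 these became -0.89, -0.90 and -0.77, and without Day0 replicate 1 Plxna3 and Ephb3 were both at -0.99, below the fold threshold. In mock cells alone, Plxnd1 (1.56) and Plxna4 (1.20) were called higher.

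Ephb1, another ephrin-B receptor, was at 2.83 and 2.33 FPKM in Day0, 61.8 and 49.5 in non-treated and 53.4 and 50.3 in mock (3.98 ± 0.13, adjusted p = 6.33e-10, and 3.89). Epha4, which binds ephrins of both classes, rose by 3.07 and 2.92. None of the 6 ephrins was called in either comparison. Efna1 came nearest, at 0.89 and 0.93 (adjusted p = 1.74e-05 and 1.25e-05), below the 2-fold limit. The netrin receptor Unc5b rose by 3.57 and 3.63, and Robo2 by 1.62 and 1.96, while Dcc, Ntn1, Ntn4, Unc5a, Unc5c, Robo1 and Slit2 were not called.

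**Figure D2:**
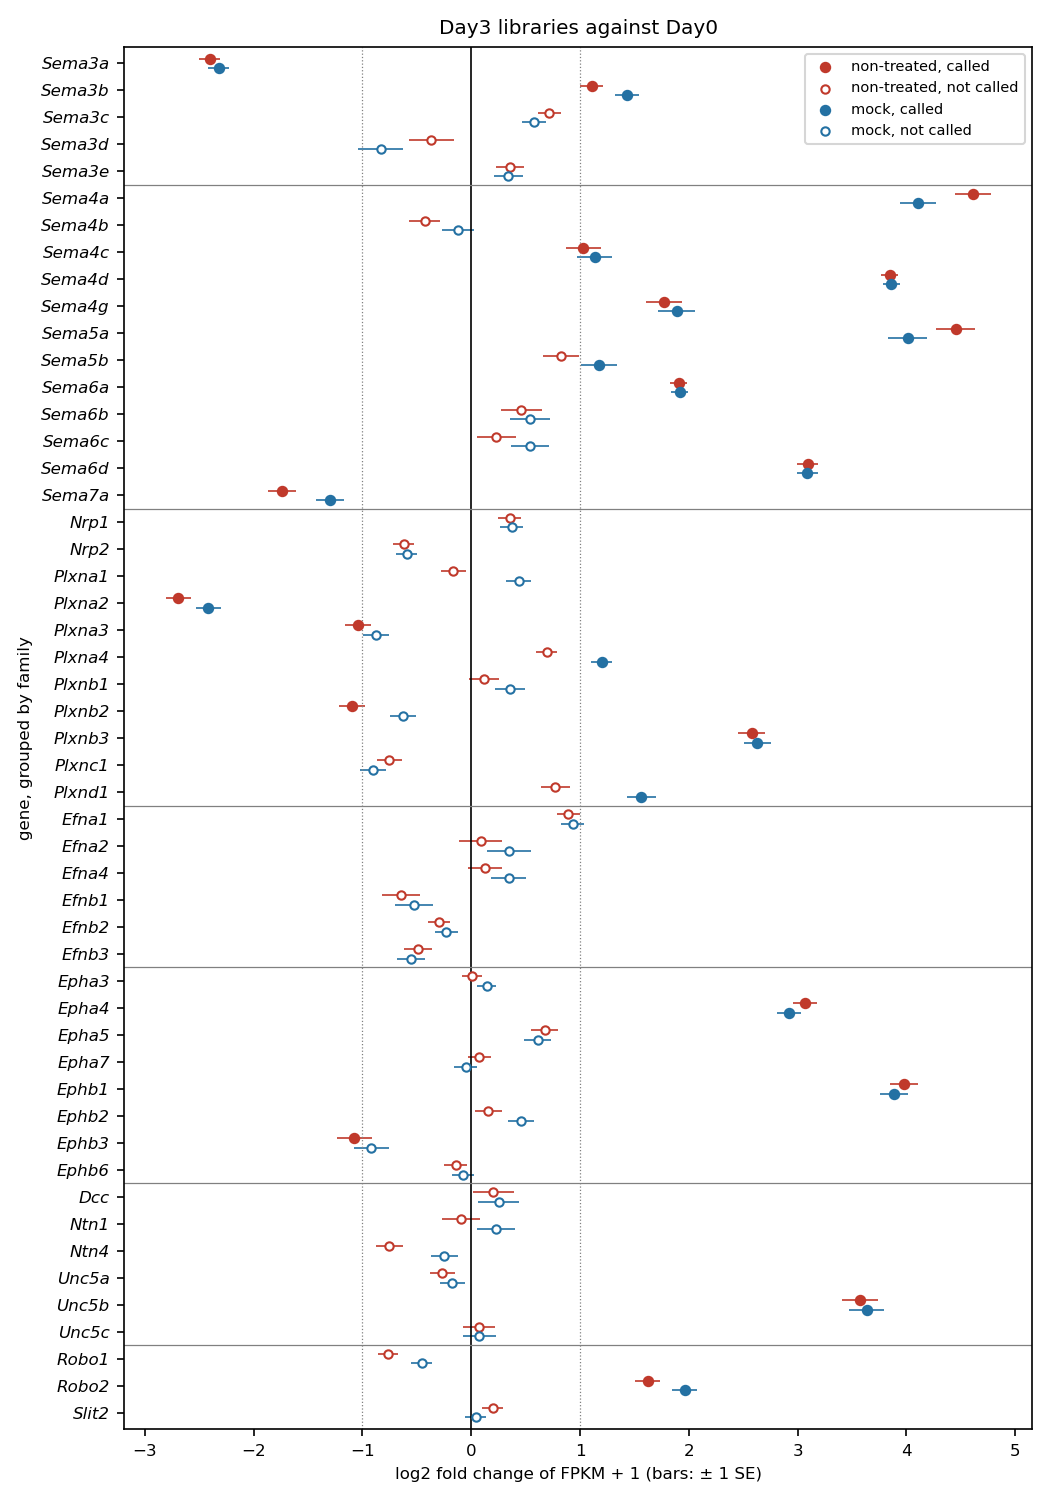
Log2 fold change of FPKM + 1 of each member in Day3 non-treated (red) and mock (blue) cells against Day0, with bars of 1 SE on either side, filled symbols for called members and dotted lines at 2-fold. Of the 13 filled red symbols on the right, 7 are membrane semaphorins, up to 4.61 for Sema4a in non-treated cells, and Plxna2 (-2.69) lies farthest to the left.

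To ask which guidance genes differ when Sbp2l is lowered, siSbp2l was compared with the mean of the 4 Day3 control groups. Here 13 of 51 members were called, against 7.19% of the 11650 genes tested, with 7 higher (background 3.12%) and 6 lower (4.08%). The median log2 fold change was 0.41 over the members and 0.15 over all genes. With median-ratio scaling, under which the median of all genes is near 0, 12 members were called (7.19% of all genes), 5 higher and 7 lower. By a stricter rule, a call in 1 direction against each of the 4 controls, 8 members passed (3.23% of all genes), 3 higher (1.19%) and 5 lower (2.03%). This count was 5 without NC siRNA #2 replicate 1 and 5 without siSbp2l replicate 2. In both of these fits the share of all genes called stayed near that of the full fit. Non-treated and mock libraries enter the comparisons with siSbp2l as well as those with Day0. The OL marker sum was lower in the same siSbp2l libraries. Of 6 neuron markers tested, 1 was called, Syt1, which was higher (1.72). Elavl3 was at 44.5 and 43 FPKM in siSbp2l, below the 64.5 to 106 of the control libraries. Of 7 OPC markers 1 was called higher and 1 lower. The part of these markers in the results on the members was not tested.

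The 5 members lower against each control were 4 membrane semaphorins and Ephb1. Sema4a (chr3:88435962-88461182, mm10) was at 1.75 and 1.63 FPKM in siSbp2l and at 30.8 and 20.2 FPKM in non-treated, 18.3 and 16.3 in mock, 8.66 and 9.38 in NC siRNA #1 and 11.5 and 13.6 in NC siRNA #2 (-2.56 ± 0.14 on the log2 scale against the mean of the controls, adjusted p = 4.73e-07). Both siSbp2l libraries lay below all 8 controls, and the mean of the control groups was 9.51 times that of siSbp2l. Sema4g (chr19:44989344-45003395) was at 5.43 and 4.88 FPKM in siSbp2l and at 25.4 and 16.5 FPKM in non-treated, 23 and 21.6 in mock, 26.4 and 28.9 in NC siRNA #1 and 12.1 and 11.3 in NC siRNA #2 (-1.75 ± 0.14, adjusted p = 5.43e-06). Its siSbp2l values overlapped those of Day0 (5.58 and 5.00 FPKM), and against NC siRNA #2 the difference was only -1.04.

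Sema5a (chr15:32244813-32696341) was at 12.1 and 13.5 FPKM in siSbp2l and at 38.8 and 63.3 FPKM in non-treated, 36.6 and 35.9 in mock, 48 and 46.4 in NC siRNA #1 and 34.7 and 36.8 in NC siRNA #2 (-1.64 ± 0.15, adjusted p = 1.33e-05). Sema4d (chr13:51701248-51793644) was at 25.5 and 25.9 FPKM in siSbp2l and at 62 and 56.4 FPKM in non-treated, 59.1 and 60.6 in mock, 66.6 and 69.2 in NC siRNA #1 and 55.3 and 57.6 in NC siRNA #2 (-1.21 ± 0.07, adjusted p = 6e-07). Neither gene's siSbp2l libraries overlapped the controls, and both stayed well above Day0. Ephb1 (chr9:101922128-102354693) was at 12.7 and 11.3 FPKM in siSbp2l and at 61.8 and 49.5 FPKM in non-treated, 53.4 and 50.3 in mock, 41.8 and 43.2 in NC siRNA #1 and 28.2 and 24.3 in NC siRNA #2 (-1.73 ± 0.10, adjusted p = 8.29e-07), the smallest difference being -1.06 against NC siRNA #2.

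The 3 members higher against each control were receptors or ligands outside the semaphorins. Ephb3 (chr16:21204795-21223304) was at 11.6 and 12.1 FPKM in siSbp2l and at 3.13 and 1.69 FPKM in non-treated, 2.80 and 2.63 in mock, 2.72 and 2.77 in NC siRNA #1 and 3.17 and 3.05 in NC siRNA #2 (1.79 ± 0.13, adjusted p = 3.28e-06). This was also above Day0, where it was at 6.42 and 5.63 FPKM. The Slit receptor Robo1 (chr16:72663149-73046100) was at 12.8 and 12.5 FPKM in siSbp2l and at 3.29 and 3.33 FPKM in non-treated, 4.09 and 4.60 in mock, 4.39 and 4.44 in NC siRNA #1 and 3.64 and 3.22 in NC siRNA #2 (1.49 ± 0.08, adjusted p = 4.32e-07), with 6.05 and 6.59 FPKM in Day0. Ntn4, a secreted netrin that binds laminins (chr10:93641049-93745972), was at 17.7 and 18.3 FPKM in siSbp2l and at 4.57 and 3.38 FPKM in non-treated, 6.32 and 5.70 in mock, 6.96 and 7.44 in NC siRNA #1 and 8.30 and 8.60 in NC siRNA #2 (1.40 ± 0.10, adjusted p = 2.62e-06), and its call against NC siRNA #2 was narrow (1.01). In Day0 it was at 7.86 and 6.80 FPKM.

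Another 5 members were called against the mean of the controls but not against each of them. Unc5b was lower (-1.82), with 2.82 and 2.92 FPKM in siSbp2l, but NC siRNA #2 was itself low, at 5.66 and 5.84 FPKM. Epha5, an ephrin-A receptor, was higher by 1.21, with NC siRNA #1 (0.87) the control against which it was not called, and Sema3a by 1.13, with 2.37 and 2.29 FPKM in siSbp2l against 0.671 and 0.662 in NC siRNA #1 and 0.792 and 0.759 in NC siRNA #2, the highest of the controls. Plxna3 and the EphB ligand Efnb1 stood at the 2-fold limit, each with 1.00, and went below it with median-ratio scaling, at 0.86 for Plxna3 and 0.87 for Efnb1. Leaving out 1 library also ended these calls: without siSbp2l replicate 2 the values were 0.96 for Plxna3 and 0.89 for Efnb1, without non-treated replicate 2 they were 0.97 and 0.96, and without NC siRNA #1 replicate 1 they were 0.98 and 0.95. Plxna3 was at 0.995 without NC siRNA #2 replicate 1 and at 0.996 without mock replicate 1, and Efnb1 was at 0.98 without NC siRNA #2 replicate 2 and at 0.99 without mock replicate 2. Epha4 missed the limit on the other side, at -0.99 (adjusted p = 1.26e-05).

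KD of Pdgfra, the receptor for the mitogen that keeps OPCs dividing, was compared with the same 4 controls, so the 2 KD comparisons share their control libraries. Here 8 members were called (7.99% of all genes), 3 higher (3.97%) and 5 lower (4.03%), with a median log2 fold change of -0.06 over the members and 0.09 over all genes. Against each of the 4 controls 5 members passed (3.61%), 2 higher (1.77%) and 3 lower (1.84%). Epha3 and Nrp2, both among those higher against the mean, became members only through KD libraries and so had to be high there. Epha3 is also among those higher against each control. With a filter of FPKM of at least 5, 6 members were called against the mean (8.51% of all genes), 1 of them higher. The summed OL markers were lower than in the controls here too, 4 astrocyte markers were called lower, among them Gfap (-1.46) and Aldoc (-1.81), Syt1 (1.64) and P2ry12 (1.08) were called higher, and their part in these results was not tested.

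The 3 members lower against each control were Sema4a, Ephb1 and Sema5a. Sema4a was at 0.199 and 0.213 FPKM in siPdgfra, about 14.7 and 14.7 fragments, against 8.66 to 30.8 FPKM in the control libraries (-3.72 ± 0.14, adjusted p = 7.63e-08), so that the mean of the control groups was 78.0 times that of siPdgfra. Ephb1 was at 7.40 and 8.50 FPKM against 24.3 to 61.8 (-2.28 ± 0.10, adjusted p = 1.79e-07), and Sema5a at 12.6 and 10.5 FPKM against 34.7 to 63.3 (-1.77 ± 0.15, adjusted p = 7.29e-06). For each of these genes both siPdgfra libraries were below all 8 controls. Robo2 (-1.36) and Unc5b (-1.18) were lower against the mean of the controls, but Robo2 was not called against NC siRNA #1 (-0.87), nor Unc5b against NC siRNA #2 (-0.16).

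The other members called against each control in siSbp2l were not called in siPdgfra against the mean of the controls. Sema4d was at 40.7 and 40.2 FPKM in siPdgfra (-0.57) and Sema4g at 15 and 12.4 (-0.49). Ephb3 was at 4.35 and 4.36 FPKM (0.53) and Ntn4 at 10.9 and 9.57 (0.64). In the direct comparison of the KDs, Sema4g, Ephb3 and Robo1 were called. Sema4d (-0.63, limma adjusted p = 0.000186) and Ntn4 (0.76, adjusted p = 0.000653) passed the adjusted p there and fell short of 2-fold. Sema3a was at 1.93 and 1.71 FPKM in siPdgfra (0.89), also short of the 2-fold limit.

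Sema3e, a secreted semaphorin that can bind Plxnd1 without a neuropilin, was at 2.02 and 1.92 FPKM in Day0, 2.27 and 3.45 in non-treated, 2.88 and 2.66 in mock, 3.75 and 3.43 in NC siRNA #1, 3.23 and 3.27 in NC siRNA #2, 4.82 and 4.46 in siSbp2l and 12.4 and 13.2 in siPdgfra. The siPdgfra libraries stood above every other library (1.75 ± 0.11, adjusted p = 1.23e-06), while Plxnd1 itself was at -0.28 and not called. Epha3, an ephrin-A receptor (chr16:63545218-63864157), was at 0.326 and 0.201 FPKM in Day0, 0.251 and 0.282 in non-treated, 0.435 and 0.350 in mock, 0.459 and 0.462 in NC siRNA #1, 0.490 and 0.383 in NC siRNA #2, 1.07 and 0.892 in siSbp2l and 2.96 and 2.77 in siPdgfra (1.48 ± 0.07 in siPdgfra, adjusted p = 3.04e-07). It passed the level for members only through the KD libraries, and siSbp2l was intermediate (0.51, not called). Nrp2, a co-receptor for secreted semaphorins that became a member through siPdgfra alone, was at 1.87 and 2.18 FPKM there and at 0.0619 to 0.759 in the control libraries (1.23).

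**Figure D3:**
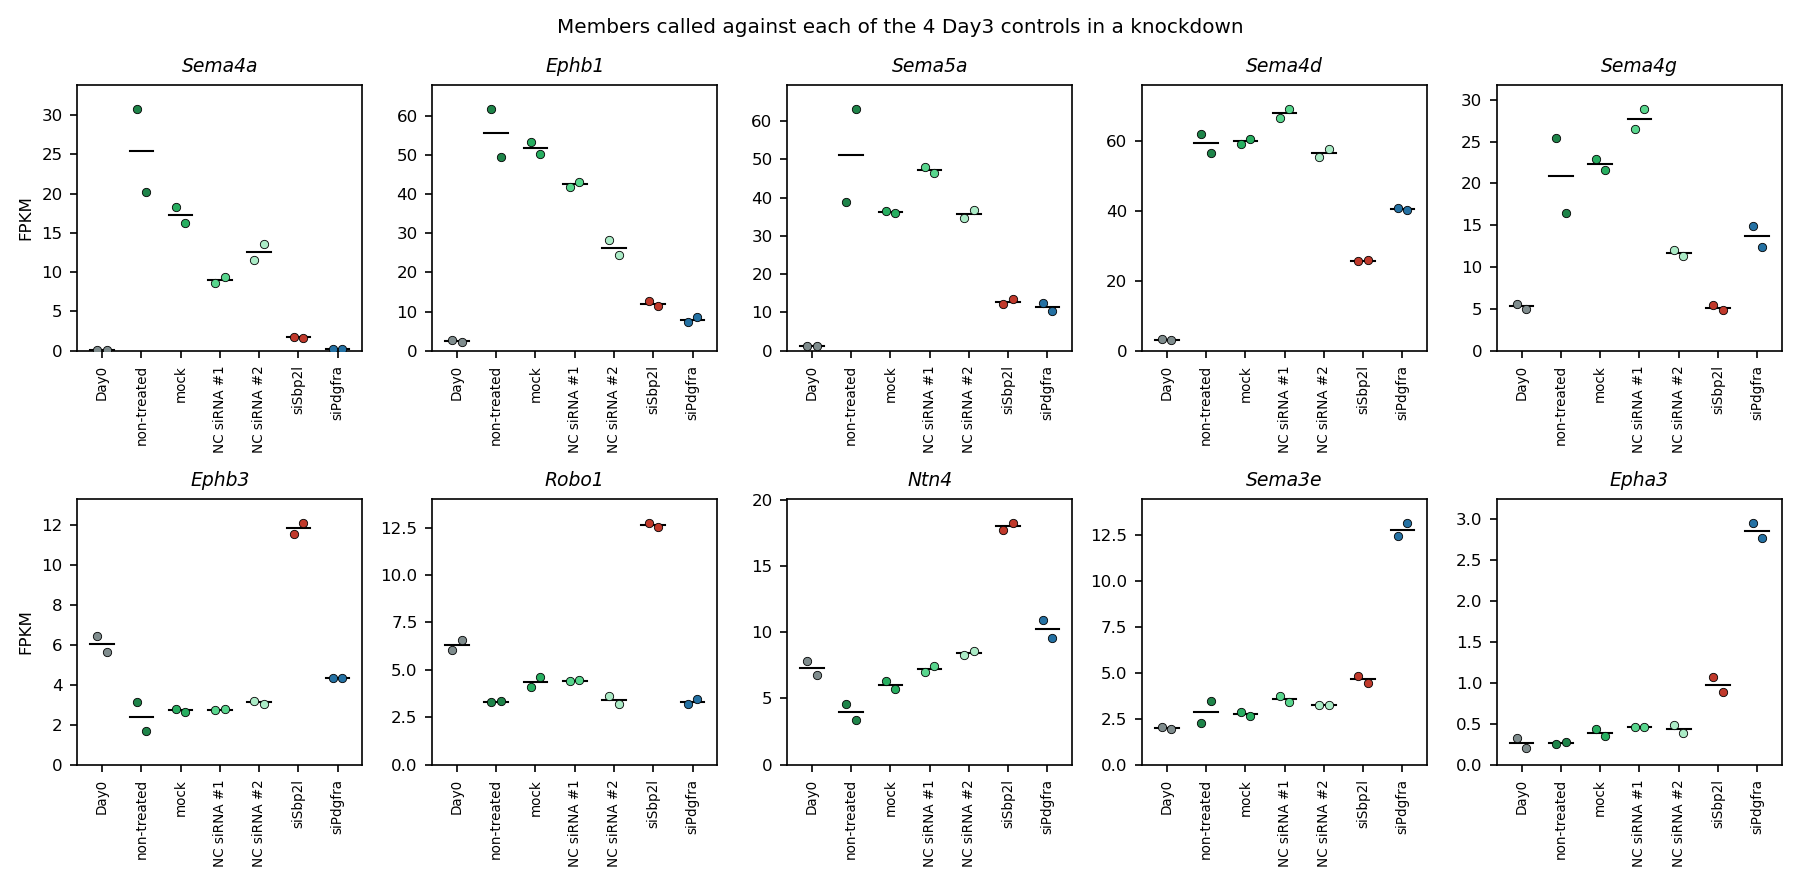
FPKM of the 10 members called in 1 direction against each of the 4 Day3 controls in siSbp2l or siPdgfra, with a point for each library and a line at the group mean, by group. Sema4a, Ephb1 and Sema5a are low in both KD groups, Ephb3, Robo1 and Ntn4 are highest in siSbp2l, and Sema3e and Epha3 are highest in siPdgfra.

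Sema4a, Ephb1 and Sema5a were the members called lower against each control in both KDs, and the 250 bases before their starts are shown for that reason (RefSeq, GRCm38.p6, each read 5′ to 3′ on the strand of the gene: Sema4a at chr3:88461183-88461432, minus; Ephb1 at chr9:102354694-102354943, minus; Sema5a at chr15:32244563-32244812, plus). Each was the table's entry that ends at the gene's deposited start; Sema4a has 4 entries in that table.
Sema4a: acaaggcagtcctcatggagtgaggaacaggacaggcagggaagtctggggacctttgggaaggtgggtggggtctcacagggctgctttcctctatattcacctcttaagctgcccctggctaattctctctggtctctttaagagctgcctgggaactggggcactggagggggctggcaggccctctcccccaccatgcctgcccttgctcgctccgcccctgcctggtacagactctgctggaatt
Ephb1: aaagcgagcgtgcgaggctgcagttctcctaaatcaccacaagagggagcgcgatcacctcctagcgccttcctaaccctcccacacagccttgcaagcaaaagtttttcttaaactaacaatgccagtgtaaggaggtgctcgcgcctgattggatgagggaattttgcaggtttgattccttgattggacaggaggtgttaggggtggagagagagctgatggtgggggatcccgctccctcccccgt
Sema5a: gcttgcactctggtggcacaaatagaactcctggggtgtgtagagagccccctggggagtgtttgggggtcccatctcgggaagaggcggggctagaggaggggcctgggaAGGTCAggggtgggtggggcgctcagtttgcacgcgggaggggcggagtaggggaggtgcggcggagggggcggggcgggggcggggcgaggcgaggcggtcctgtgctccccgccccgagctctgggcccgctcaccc
GC content was 59.6% for Sema4a, 54.0% for Ephb1 and 72.0% for Sema5a. Both strands were searched for CTTTGA, the core read by TCF/LEF factors such as Tcf7l2, for AGGTCA, the hexamer that thyroid hormone receptors read as a repeat, and for the E-box CAGCTG. Capitals mark the only match, an AGGTCA in the Sema5a sequence, which overlaps no other match. In 32851 promoter windows of the same length, 13.8% held the first, 14% the second and 13% the third.

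**Figure D4:**
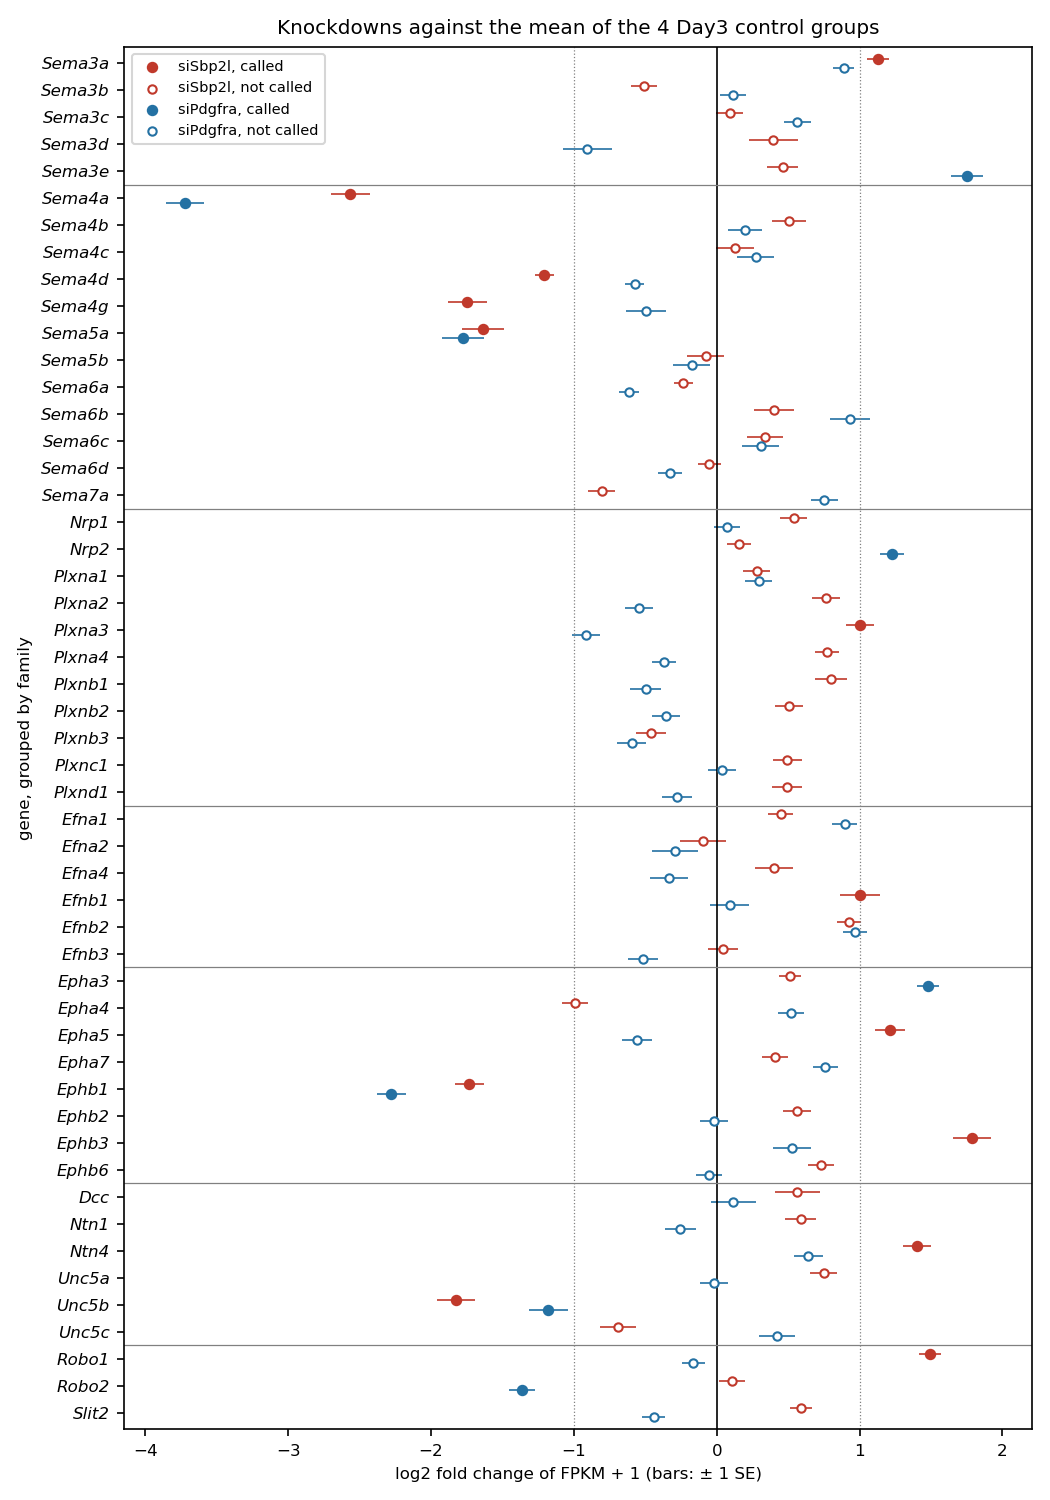
Log2 fold change of FPKM + 1 of each member in siSbp2l (red) and siPdgfra (blue) against the mean of the same 4 Day3 control groups, with bars of 1 SE on either side, filled symbols for called members and dotted lines at 2-fold. Sema4a lies farthest to the left in both (-2.56 and -3.72), and the A-type plexins Plxna2, Plxna3 and Plxna4 lie to the right in siSbp2l and to the left in siPdgfra. Plxna1, also A-type, lies to the right in both, at 1.21 and 1.22 times the control mean in FPKM.

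The KDs were then compared directly. The fold change of this comparison uses no control library. The control libraries still entered the filter on genes and the estimated spread behind each SE and adjusted p. In siSbp2l against siPdgfra, 17 members were called (13.7% of all genes), 11 higher in siSbp2l (6.94%) and 6 lower (6.73%), with a median of 0.38 over the members and 0.06 over all genes. In the same libraries 4 OL markers and Elavl3 (-1.62) were called lower in siSbp2l, 4 astrocyte markers, 3 OPC markers (Pdgfra itself among them) and Vwf (1.26) were called higher, and their part was not tested. All 3 genes of the Slit and Robo group were higher in siSbp2l: Robo1 (1.66), Robo2 (1.47) and the ligand Slit2 (1.03, which was 0.97 with median-ratio scaling and then not called). Robo1 in siPdgfra, at 3.20 and 3.46 FPKM, overlapped the controls, while Robo2 was below all of them there.

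Of the plexins, Plxna3 (1.92), Plxna2 (1.31), Plxnb1 (1.30) and Plxna4 (1.14) were higher in siSbp2l. Plxna3 was at 6.80 and 7.34 FPKM in siSbp2l and 0.996 and 1.28 in siPdgfra, on either side of the 2.35 to 3.82 of the control libraries. Plxna2 was at 6.16 and 6.55 FPKM in siSbp2l, 2.00 and 1.95 in siPdgfra, 4.422 and 4.004 in NC siRNA #1 and 2.93 and 3.49 in NC siRNA #2, all below Day0. Plxnb1, the receptor for Sema4d, was at 22.4 and 24.1 FPKM in siSbp2l, 9.22 and 8.49 in siPdgfra and 8.56 to 18.5 in the controls, where siPdgfra overlapped the lowest control. Epha5 (1.77), Ephb3 (1.26), Sema3d (1.30) and Sema4a (1.16) were also higher in siSbp2l.

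Lower in siSbp2l than in siPdgfra were Sema7a (-1.56), Epha4 (-1.52), Sema3e (-1.29), Sema4g (-1.25), the netrin receptor Unc5c (-1.11) and Nrp2 (-1.07). Nrp2 became a member through siPdgfra alone, so it had to be high there. Epha4 was at 11 and 11 FPKM in siSbp2l, 31.4 and 35.5 in siPdgfra and 18.9 to 34.1 in the control libraries. Its siSbp2l values were below all controls, and those of siPdgfra overlapped NC siRNA #1. The ephrin-B ligand Efnb2 did not differ by the threshold between the KDs, with 5.20 and 4.63 FPKM in siSbp2l and 4.87 and 5.34 in siPdgfra, both above the 1.48 to 2.61 of the controls, but below 2-fold against their mean on the log2(FPKM + 1) scale (0.92 and 0.97, adjusted p = 1.25e-05 and 8.42e-06).

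The controls were compared with each other to see how far a guidance gene can move without a targeting siRNA. NC siRNA #1 against NC siRNA #2 gave 7 called members (3.99% of all genes). Unc5b (1.65), Efna2 (1.37), Sema6a (1.21) and Sema4g (1.18) were higher with NC siRNA #1, and Sema3c (-1.73), Sema3d (-1.50) and Robo2 (-1.36) with NC siRNA #2. In the same comparison 4 of 8 OL markers, 2 of 6 neuron markers, Tubb3 (1.14) and Nefm (1.24), and P2ry12 (1.21) were higher with NC siRNA #1, and their part in these differences was not tested.

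Robo2 was at 1.95 and 2.09 FPKM in Day0, 7.27 and 9.40 in non-treated, 10.8 and 10.7 in mock, 7.93 and 7.08 in NC siRNA #1, 21.2 and 20.5 in NC siRNA #2, 12.1 and 11.5 in siSbp2l and 3.54 and 3.74 in siPdgfra. The NC siRNA #2 pair was the highest of all, and siSbp2l fell inside the range of the controls. Sema3c was at 5.84 and 7.17 FPKM in NC siRNA #2 and between 1.01 and 1.44 in the other control libraries. Sema3d, the highest of the secreted semaphorins, was at 19.8 and 20.8 FPKM in Day0, 11.1 and 21.5 in non-treated, 11 and 10.9 in mock, 13.1 and 12.6 in NC siRNA #1, 37.2 and 39.3 in NC siRNA #2, 22.6 and 23 in siSbp2l and 8.69 and 8.63 in siPdgfra. Its NC siRNA #2 pair stood above every other library, and its siPdgfra pair below every other.

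Both NC siRNAs together against mock and non-treated cells gave 1 called member (1.28% of all genes). This was Sema7a (2.03, SE 0.08, adjusted p = 1.31e-06, limma), with 7.84 and 6.20 FPKM in Day0, 1.46 and 1.32 in non-treated, 2.17 and 2.32 in mock, 13.1 and 13.7 in NC siRNA #1, 7.38 and 8.56 in NC siRNA #2, 2.26 and 2.18 in siSbp2l and 9.42 and 7.64 in siPdgfra. Both NC siRNAs and siPdgfra were high, and siSbp2l lay within the replicate spread of mock cells (-0.01, adjusted p = 0.948), although it was called lower against NC siRNA #1 (-2.16) and NC siRNA #2 (-1.48). Without non-treated replicate 2, the count of called members was 2. The share of all genes called was then near that of the full fit. P2ry12 (1.60) and Tubb3 (1.19) were called higher in the full comparison, and their part was not tested.

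**Figure D5:**
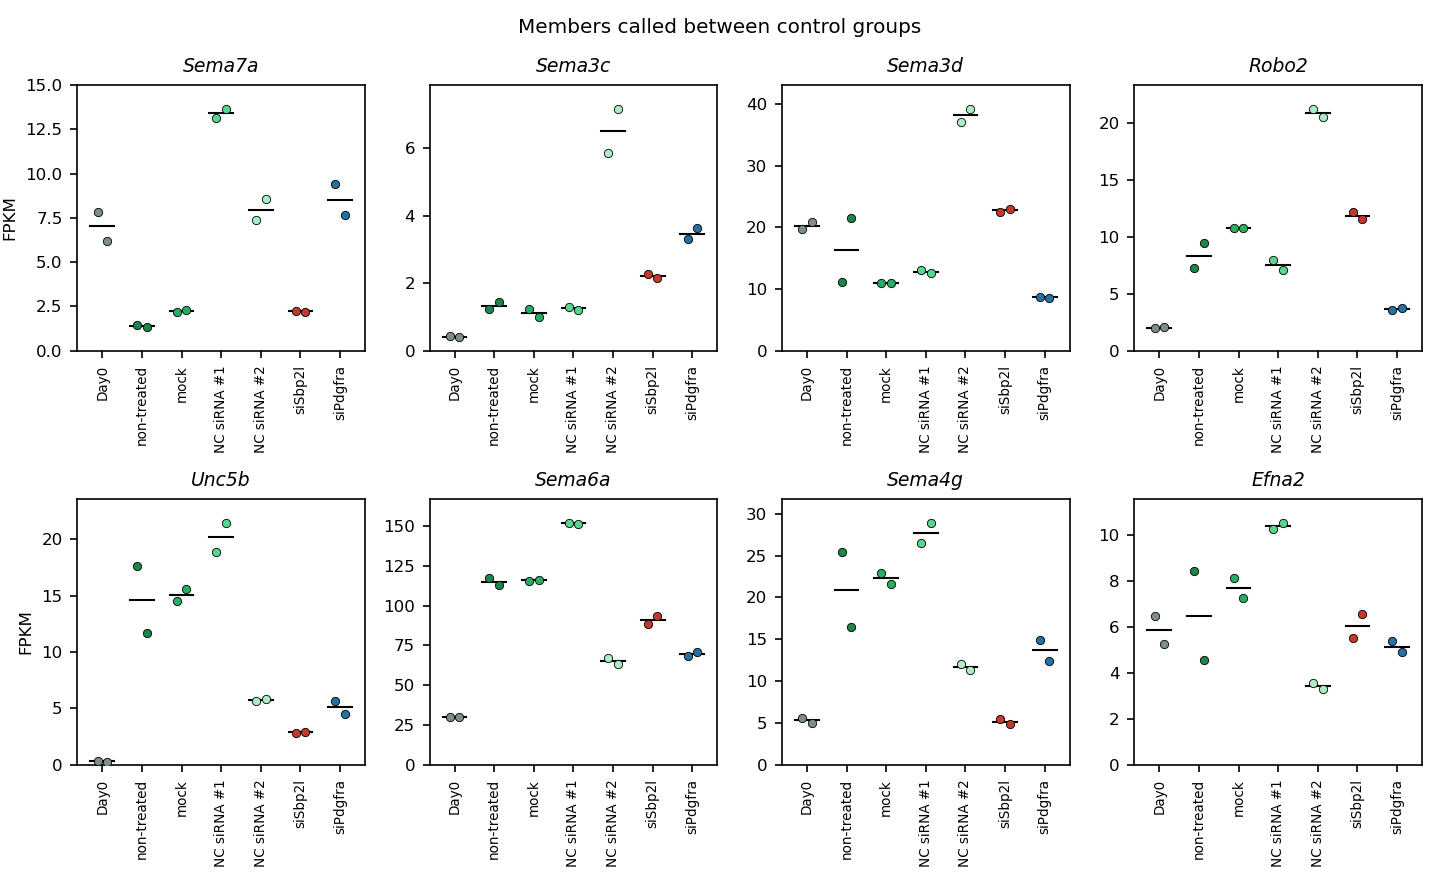
FPKM of the 8 members called between control groups, with a point for each library and a line at the group mean, by group. Sema7a is higher with either NC siRNA than in mock or non-treated cells, and Sema3c, Sema3d and Robo2 are highest with NC siRNA #2, where Unc5b, Sema6a, Sema4g and Efna2 are the lowest of the controls.

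Partners and transducers of these receptors were measured beside the members. Of 32 co-receptors and other guidance partners, 28 were tested. In siSbp2l 3 were higher and 2 lower (5 called, against 7.19% of all genes), with Cntn2, an adhesion molecule of axons and glia, at 2.32 and Mag, a myelin protein that inhibits axon growth, at -2.48. In siPdgfra 4 were higher and 4 lower (7.99% of all genes were called), with the netrin-binding adhesion molecule Dscam at 1.67 and Mag at -2.38. From Day0 to non-treated Day3, 7 were higher and 4 lower (26.6% of all genes), with Mag at 7.99 and Rtn4, which encodes Nogo, at 2.33.

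Of 48 intracellular transducers, 44 were tested. In siSbp2l 6 were higher and 1 lower (against 7.19% of all genes called), among them the Slit-Robo GTPase-activating proteins Srgap1 (1.56) and Srgap3 (1.14) and the actin-binding Ablim1 (2.05), while Rac1, a GTPase downstream of Dcc and plexins, was at -1.0. In siPdgfra 6 were higher and 1 lower (7.99%), with the exchange factors Vav3 (1.76) and Vav2 (1.61) and the kinase Pak1 (1.46) higher and the kinase Rock1 lower (-1.03). From Day0 to non-treated Day3, 5 were higher and 8 lower, a share near the 26.6% of all genes, with Fyn, a kinase downstream of Dcc and Plxna2, at 1.70. The median log2 fold change of the transducers was 0.32 in siSbp2l and 0.11 in siPdgfra, beside 0.15 and 0.09 over all genes.

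Exon bases of 8 members are shared with another annotated gene, 6 of these on the opposite strand, and the strand setting of the counting is not given in the sources used here. Among the members described with values in every library, this concerns Ephb1, whose exons share 152 bases with the noncoding gene Gm26846 on the opposite strand, and without strand in the counting the reads of this pair cannot be told apart.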

How the data were processed

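The authors processed stranded, paired-end mRNA-seq reads with OmicSoft ArrayStudio (aligner and counting settings not given in the sources used here) on mm10, per the labels, and deposited 1 table of FPKM values. A second deposited table, not used for values, holds the authors' log2 fold changes and p-values for siSbp2l against each control, made with DESeq2; gene coordinates and exon lengths were taken from it. Depth was estimated from the steps between low FPKM values, of which 88.8% to 92.5% (genes with 1 transcript) came within 0.1 of a whole fragment. In a gene with 2 kb of exon, 3 fragments correspond to 0.0474 to 0.229 FPKM, for counting error only. Groups and replicate numbers came from the labels.

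limma 3.58.1 (R 4.3.3) was fitted to log2(FPKM + 1) with trend and robust moderation, on genes with at least 1 FPKM in at least 2 libraries fitted: 11650 genes in the 12 Day3 libraries and 11874 in all 14 for Day0. Tests were two-sided, p-values were Benjamini-Hochberg adjusted over all genes tested, and calls needed an adjusted p under 0.05 and a fold change of at least 2. The fit was tested on simulated data with changes in siSbp2l alone and the same spread in every group. Non-treated varied more here, so that test does not cover this difference in spread. Members and lists were chosen with earlier results of these data known. Every called member was named, with values in each library for those called against all 4 controls, the 3 largest rises and falls after Day0, and the highest in each family. Alternatives were pseudocount, filter, scaling, moderation, voom on estimated fragments, fold threshold, the replicate block and leaving out each library.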

Additional observations from a re-analysis of the deposited data

Results flagged for a closer look

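Effects of the KDs against the same controls had opposite signs, each with an adjusted p under 0.05, and the direct limma test of siSbp2l against siPdgfra called the difference, for 9 members. All but 3 were higher in siSbp2l. Among the plexins the log2 difference was 1.92 for Plxna3 (1.00 in siSbp2l and -0.92 in siPdgfra), 1.31 for Plxna2 (0.77 and -0.54), 1.30 for Plxnb1 (0.80 and -0.50) and 1.14 for Plxna4 (0.77 and -0.37). It was 1.77 for Epha5 (1.21 and -0.56) and 1.03 for Slit2 (0.59 and -0.44). Lower in siSbp2l were Sema7a, by -1.56 (-0.80 and 0.75), Epha4, by -1.52 (-0.99 and 0.52), and Unc5c, by -1.11 (-0.69 and 0.42). Sema7a also differed between control groups, so its sign depends on the control chosen: siSbp2l was at 0.43 against non-treated and -2.16 against NC siRNA #1, and siPdgfra at 1.99 and -0.60. For Epha4 and Unc5c the mean FPKM of siPdgfra was slightly below that of NC siRNA #1. Their higher level in siPdgfra thus did not hold against every control. The siPdgfra libraries of Epha4, Unc5c, Plxna4 and Plxnb1 overlapped the range of the control libraries. Groups of 2 libraries are too small for a check of single libraries that stand apart.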

How the results depend on the processing

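No direction of a called member reversed under the alternatives run. Of 1932 alternative values for 84 member calls, 66 lost the call, 36 of them with a pseudocount of 5. Calls whose gene no longer passed the filter have no value and are not among these losses. With FPKM of at least 5, 75 of the 84 calls could be checked, and 82 without siPdgfra replicate 1 or without siPdgfra replicate 2. Each count in this paragraph is given with the share of all genes called under the same setting. A pseudocount of 5 gave 12 called members in Day3 non-treated against Day0 (16.1%), 8 in siSbp2l (3.36%) and 4 in siPdgfra (3.28%) against the mean of the controls, 4 in siSbp2l against each control (1.44%), 5 between the KDs (5.96%) and 4 between the NC siRNAs (1.68%), and a pseudocount of 0.5 gave 2 for both NC siRNAs against mock and non-treated (2.09%). Without a fold threshold the counts were 36 for non-treated (67%) and 38 for mock (66.3%) against Day0, so the non-treated share is near the background, 42 for siSbp2l (53.4%) and 35 for siPdgfra (55.4%) against the mean, 24 (21.8%) and 15 (22.4%) against each control, 40 between the KDs (52%), 22 between the NC siRNAs (21%) and 20 for both NC siRNAs (28.1%). With voom, siPdgfra gave 14 against the mean (14%) and 10 against each control (6.21%), the NC siRNAs 11 between them (6.64%) and 4 together (3.85%). The cause of these shifts was not tested, beyond the scale on which the fold is read.

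Leaving out 1 library gave 17 to 19 members for non-treated and 19 to 20 for mock against Day0, 11 to 14 for siSbp2l and 8 to 10 for siPdgfra against the mean, 5 to 9 for siSbp2l and 5 to 5 for siPdgfra against each control, 17 to 19 between the KDs, 7 to 8 between the NC siRNAs and 1 to 2 for both NC siRNAs. The share of all genes called stayed near that of the full fit in each of these comparisons. Where this left a group with 1 library, that library was assumed to vary like the other groups. Samples that share a replicate number did not deviate together in most pairs of groups (r from -0.38 to 0.47 over 21 pairs, 4 of them over 0.1). The highest r were 0.473 for Day0 with non-treated and 0.394 for Day0 with siPdgfra. With the number as a replicate block the counts were unchanged, at 13 for siSbp2l, 8 for siPdgfra and 19 for non-treated against Day0. Members with few fragments, such as Sema4a in Day0, limit the precision of their fold changes, and 2 libraries a group limit every comparison.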
